A study of Homo sapiens with 6 samples.

Results

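The polypeptide GalNAc-transferases that begin mucin-type O-glycans were followed on a glycogene array through 9 probe sets, 1 for each of 9 genes. They were taken from 1259 probe sets in all by matching the RefSeq accession in the probe set's identifier to one of 10 gene symbols, GALNT1 to GALNT7 and GALNT10 to GALNT12. GALNT10 had no probe set under that rule and is not analysed here. Of the 1259 probe sets, 1043 could be named in the same way, and these covered 927 genes.

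The cells were HCT116, an established line from a colorectal carcinoma of the microsatellite-unstable kind. The arrays came from 6 samples, all labelled as carrying wild-type ACVR2 under doxycycline control and all given activin A, a ligand of that receptor. In 3 of them doxycycline had been added and in the other 3 it had not, and these groups are called here with and without doxycycline. By the sample titles the inducible gene was ACVR2, whereas the source labels name TGFBR2 and AIM2 beside it. The labels do not say whether the cells were 1 clone, how long doxycycline was given or whether replicates were separate cultures, so p-values reflect only how far these samples differ from each other, and that may be technical spread. No sample had doxycycline without the inducible gene, so the drug and the receptor cannot be told apart.

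GalNAc-transferases are Golgi enzymes that move N-acetylgalactosamine from its UDP carrier onto serine or threonine of a protein, which makes the Tn antigen, the first sugar of every mucin-type O-glycan. The family divides the work. Some members act on bare peptide, and others prefer a peptide that already bears a neighbouring GalNAc and fill in the remaining sites of a mucin domain. In colon the chains built on this sugar cover the mucins of the surface, and truncated forms such as Tn are common in colorectal tumours.

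Values are RMA expression levels on the log2 scale, so a difference of 1 is a doubling of signal. Probe sets bind with different efficiency, and the table carries no detection calls. The brightness of each gene is therefore given against the spread of its array, and an order of brightness is no order of transcript number: which isoenzyme makes the most transcript cannot be read from these arrays. Over the 6 arrays the lower quartile of all probe sets lay between 6.85 and 6.89, the median between 7.61 and 7.65 and the upper quartile between 9.21 and 9.38. GALNT12 lay at the 68.3th to 76.6th percentile of brightness and GALNT5 at the 52.4th to 62.6th. GALNT6 lay at the 52.5th to 59.6th and GALNT4 at the 45.4th to 52.9th, and the other members are placed below.

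No GalNAc-transferase differed between cells with and without doxycycline past the threshold. With limma, 0 of the 9 had an adjusted p under 0.05, beside 0 of 1259 probe sets (0%). At an unadjusted p under 0.05 there were also 0 of the 9, beside 98 of 1259 (7.78%). In 7 of the 9 the mean was lower with doxycycline and in 2 it was higher, with a median difference of -0.12; over all probe sets 54.6% had a lower and 45.4% a higher mean, and the median was -0.0081. GALNT6 was the 1 member of 9 whose groups did not overlap, where 15.8% of all probe sets had groups that did not overlap, 7.55% higher and 8.26% lower with doxycycline. The members spread widely among the arrays without doxycycline, and the differences moved with which of them were used. Without replicate 3 of that group 4 differences changed sign, 5 of the 9 were lower with doxycycline, beside 61.8% of all probe sets in that setting, and the median difference was -0.02. Without replicate 2 all 9 were farther from 0, which the order of the arrays already sets, and the median was -0.22.

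**Figure D1:**
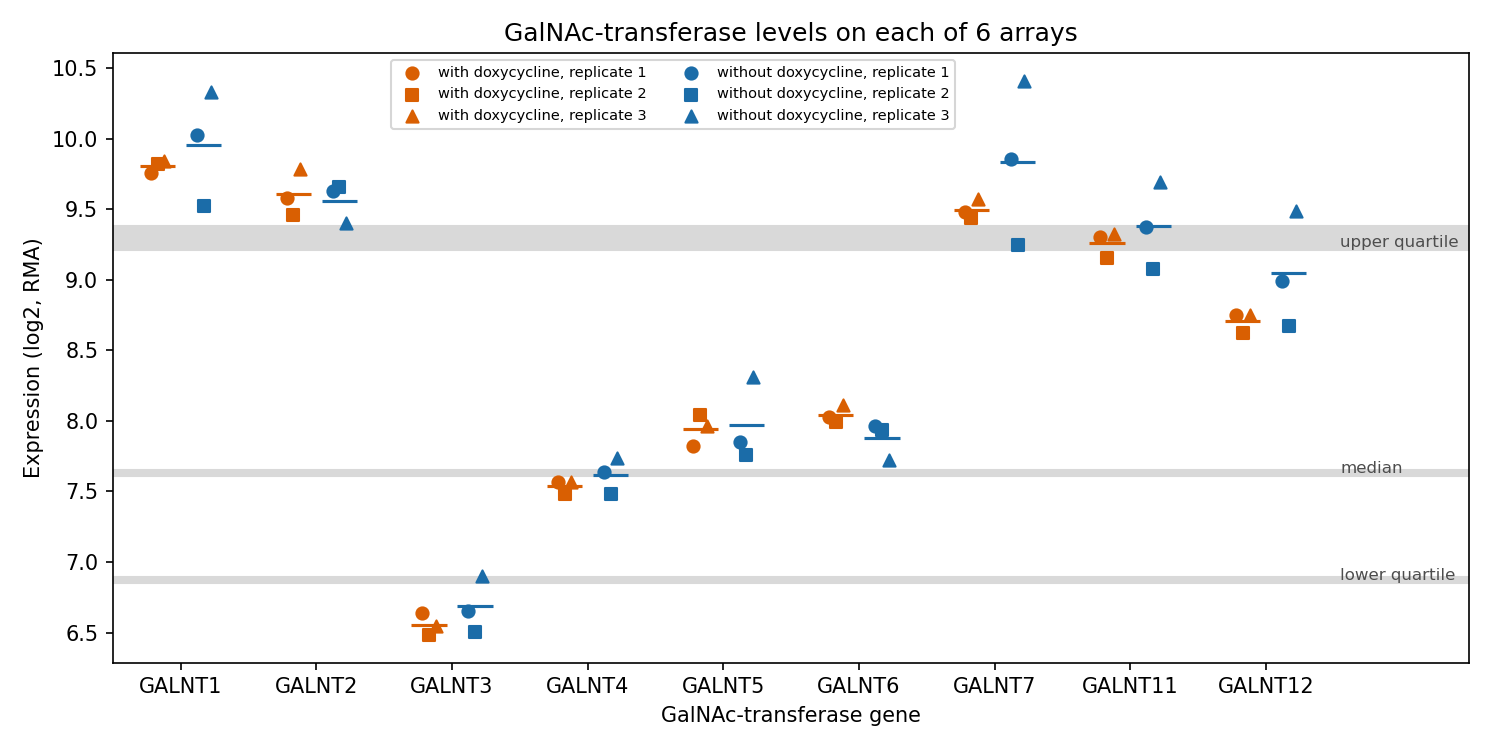
Expression of the 9 GalNAc-transferases on the log2 scale (vertical axis) for each of the 6 arrays, with doxycycline in orange and without in blue; marker shapes give the replicate, short lines the group means and grey bands the range of each array quartile. The arrays without doxycycline spread more widely than those with it for every gene but GALNT2, with replicate 3 highest for 7 genes and lowest for GALNT2 and GALNT6.

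Array 3 without doxycycline stood apart from the other 5 over the whole chip as well. Its correlation with them ran from 0.982 to 0.991, and that among the other 5 from 0.995 to 0.999. The SD of a probe set was larger without than with doxycycline for 77.1% of all probe sets. The probe set of ACVR2A, the activin receptor gene that doxycycline should induce, read 8.15, 8.02 and 8.08 on replicates 1, 2 and 3 with doxycycline and 8.25, 8.07 and 8.70 without, a difference of -0.26 (limma, adjusted p = 0.710). That difference was -0.08 without replicate 3 and -0.39 without replicate 2 of the cells lacking doxycycline. Whether this probe set can see the introduced sequence is not known, so the labels are not settled by it. Of 15 colon epithelium markers 2 were on the array, LGALS4 between 7.24 and 7.35 and MUC13 between 6.78 and 6.91, both under the array median, and they are too few to check the cell type. Of 14 markers of other cells 7 were measured, with 0 past the threshold and differences from -0.12 to 0.01. MCAM read between 8.84 and 9.06, above the array median and above both colon markers. PECAM1, CD34, NCAM1, PDGFRB, LUM and DCN were under the median on every array. These levels do not settle the cell type either.

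Among members that act on bare peptide, GALNT1 and GALNT2 are the broadly expressed ones. Both probe sets were above the 75th percentile of brightness on all 6 arrays, GALNT1 at the 78.0th to 84.6th percentile and GALNT2 at the 75.9th to 79.4th. They were not set apart by this, because GALNT7 lay at the 74.9th to 85.1th and GALNT11 at the 72.8th to 79.0th. GALNT1 read 9.76, 9.82 and 9.84 on replicates 1, 2 and 3 with doxycycline, and 10.02, 9.52 and 10.33 without. The arrays without doxycycline lay on both sides of those with it, replicate 2 below all 3 and replicates 1 and 3 above. The means were 9.81 ± 0.05 and 9.96 ± 0.41 (SD, n = 3 each), and the difference of -0.15 (limma, SE 0.20, adjusted p = 0.799) was 0.04 without replicate 3 of the cells lacking doxycycline. GALNT2, whose loss in people causes a congenital disorder of glycosylation, read 9.58, 9.46 and 9.79 with doxycycline and 9.63, 9.65 and 9.40 without. Here replicate 3 without doxycycline was the lowest of all 6 arrays, the reverse of GALNT1. The difference was 0.05 (limma, SE 0.11, adjusted p = 0.884), with a 95% confidence interval from -0.22 to 0.32, and -0.03 without that array.

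GALNT3 and GALNT6 are close relatives in sequence that are both found in epithelia, and GALNT3 is the enzyme that protects the phosphate hormone FGF23 from cleavage. GALNT6 read 8.03, 7.99 and 8.11 on replicates 1, 2 and 3 with doxycycline and 7.97, 7.94 and 7.72 without. All 3 arrays with doxycycline were above all 3 without, by 0.02 log2 units at the closest pair. The means were 8.04 ± 0.06 and 7.88 ± 0.13 (SD, n = 3 each), the difference was 0.17 (limma, SE 0.08, 95% confidence interval -0.03 to 0.36, adjusted p = 0.675), and an exact two-sided permutation test gave p = 0.1, the smallest that 3 arrays against 3 can give. It was 0.09 without replicate 3 of the cells lacking doxycycline. GALNT3 read 6.64, 6.48 and 6.55 with doxycycline and 6.65, 6.50 and 6.90 without, so the groups overlapped and replicate 3 was again the highest. It was the dimmest member, at the 11.4th to 25.8th percentile, and how much of its signal is background is unknown. Its difference was -0.13 (limma, SE 0.11, adjusted p = 0.730), and -0.02 without that array. Within each array GALNT3 minus GALNT6 was -1.39, -1.50 and -1.57 with doxycycline and -1.31, -1.44 and -0.82 without, and these values overlapped too.

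GALNT5 and GALNT11 complete the peptide-acting group. GALNT11, an enzyme known to glycosylate Notch1 and members of the LDL receptor family, read 9.30, 9.16 and 9.32 with doxycycline and 9.38, 9.07 and 9.69 without. GALNT5 read 7.82, 8.04 and 7.97 with doxycycline and 7.85, 7.75 and 8.31 without. In both genes replicate 2 without doxycycline was below, and replicate 3 above, every array with doxycycline. Their differences were -0.12 (limma, SE 0.16, adjusted p = 0.788) and -0.03 (limma, SE 0.16, adjusted p = 0.970), and without replicate 3 both turned, to 0.03 and 0.14.

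The 3 measured members that prefer a peptide already carrying GalNAc, GALNT4, GALNT7 and GALNT12, all had lower means with doxycycline, with a median of -0.34 that was -0.05 without replicate 3 and -0.53 without replicate 2 of the cells lacking it. The 6 peptide-acting members had a median of -0.08, or 0.03 without replicate 3 and -0.18 without replicate 2; the gap between these subgroups was not tested. GALNT7 acts almost wholly on such partly glycosylated peptide. It read 9.48, 9.44 and 9.57 with doxycycline and 9.85, 9.25 and 10.41 without, which spans 1.16 log2 units and was the widest range of the 9 genes. Replicate 2 was below, and replicates 1 and 3 above, all arrays with doxycycline. The means of 9.50 ± 0.07 and 9.84 ± 0.58 (SD, n = 3 each) differed by -0.34 (limma, SE 0.29, 95% confidence interval -1.06 to 0.38, adjusted p = 0.730), and by -0.05 without replicate 3.

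GALNT12 is the member in which germline changes have been tied to colorectal cancer risk. It read 8.75, 8.63 and 8.75 with doxycycline and 8.99, 8.68 and 9.48 without. Replicates 1 and 3 without doxycycline were above all 3 arrays with it, and replicate 2 fell among them. The means were 8.71 ± 0.07 and 9.05 ± 0.41 (SD, n = 3 each), a 1.27-fold higher mean without doxycycline, and the difference of -0.34 (limma, SE 0.20, 95% confidence interval -0.85 to 0.17, adjusted p = 0.692) was -0.13 without replicate 3. The exact two-sided permutation p was 0.3. GALNT4, whose transcript shares its sequence with a POC1B-GALNT4 readthrough that the probes may also read, had 7.57, 7.48 and 7.56 with doxycycline and 7.63, 7.48 and 7.73 without. Its range over the 6 arrays, 0.25, was the narrowest of the 9, and its difference was -0.08 (limma, SE 0.07, adjusted p = 0.730), or -0.02 without that array.

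**Figure D2:**
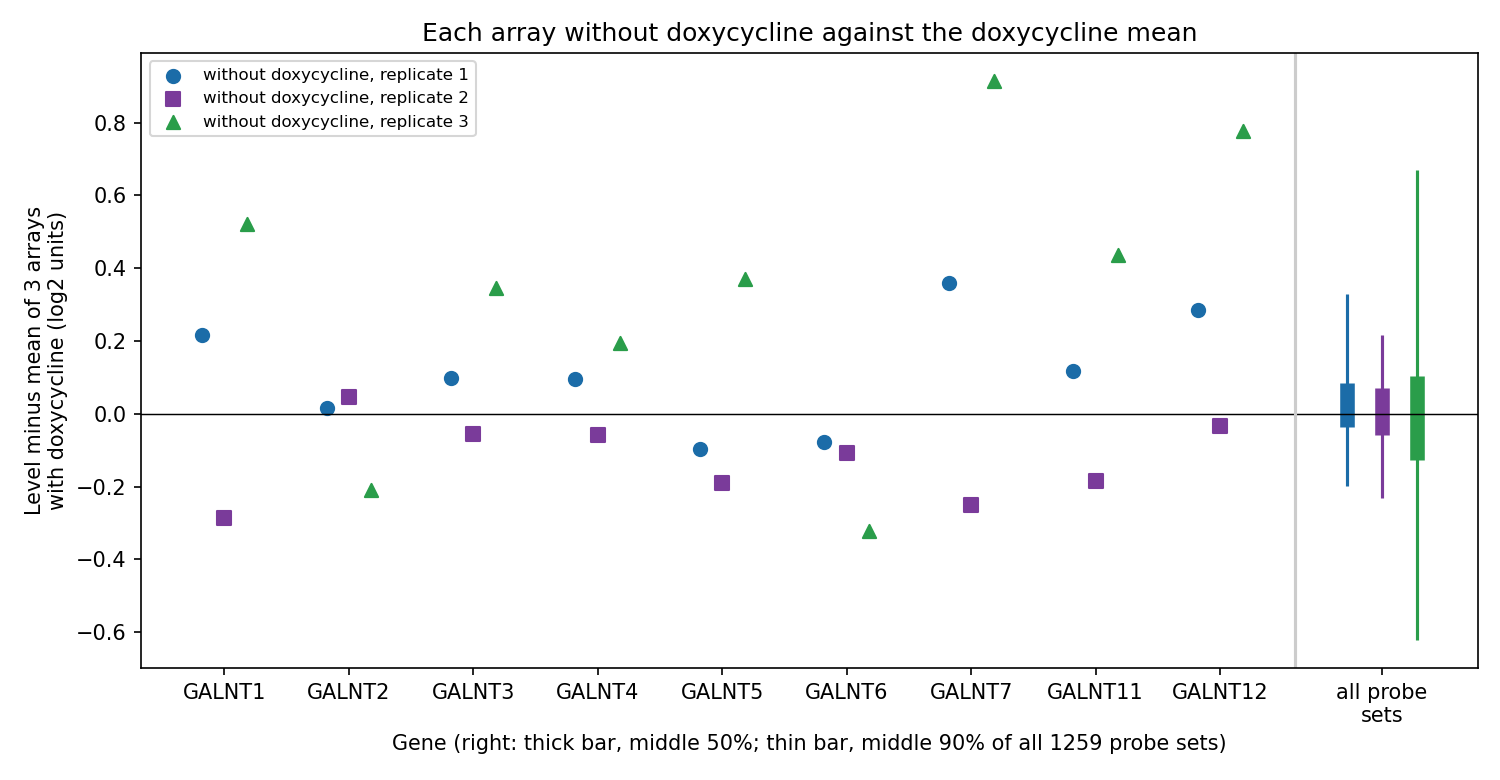
Level on each array without doxycycline minus the mean of the 3 arrays with it, in log2 units (vertical axis), for each gene; the bars at the right give the middle 50% (thick) and middle 90% (thin) of all 1259 probe sets on the same arrays. Replicate 3 lies between 0.195 and 0.914 for 7 genes and at -0.21 and -0.32 for GALNT2 and GALNT6, while replicate 2 lies under 0 for every gene but GALNT2.

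The members did not all move together, although 7 of the 9 shared a pattern. Among the arrays without doxycycline, GALNT1, GALNT3, GALNT4, GALNT5, GALNT7, GALNT11 and GALNT12 shared 1 order, replicate 3 over 1 over 2; this order held for 21.5% of all probe sets. In 5 of these genes (GALNT1, GALNT4, GALNT5, GALNT7 and GALNT11) replicate 3 was above and replicate 2 below every array with doxycycline, for GALNT4 by a margin of 0.0036 only, as in 12.0% of all probe sets. Replicate 3 exceeded the mean of the other 5 arrays by 0.89 for GALNT7, which was at the 97.1th percentile of the absolute deviation of all probe sets, and by 0.73 for GALNT12, at the 93.7th. For GALNT6 and GALNT2 it was below that mean, at -0.29 and -0.22. The median absolute deviation of this array was 0.43 over the 9 members and 0.11 over all probe sets. Genes of UDP-GalNAc supply, described below, deviated on it too, GFPT1 by 0.69, UAP1 by 0.42, GFPT2 by 0.37 and GALK2 by 0.07. SLC35D2 was at -0.51, GNPNAT1 at -0.44, SLC35A2 at -0.30 and SLC35D1 at -0.17. A background matched for brightness was not made. The part of this array in the group differences is shown by the values without it, given with each gene.

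Over the 6 arrays GALNT7 and GALNT12 had a Pearson correlation of 0.98, and 0.89 over the 5 arrays left when replicate 3 without doxycycline was dropped. GALNT2 and GALNT7 had -0.51, and 0.15 over those 5. These are descriptions over few arrays that share the array-wide shifts. Sequence upstream of the start site is shown for these 3 genes, GALNT7 and GALNT12 because their levels ran together over the arrays and GALNT2 because its levels did not. Other pairs ran together as closely or more so. GALNT4 and GALNT11 had 0.98, and 0.95 over those 5 arrays, and GALNT1 and GALNT7 had 0.98, and 0.95. GALNT7 and GALNT11 had 0.97, and 0.89. No window of GALNT1, GALNT4 or GALNT11 is shown. Each run is 250 bases, read 5′ to 3′, from RefSeq with the GRCh38.p14 assembly, and capitals mark GGGCGG, the GC box bound by Sp1-type factors.
GALNT7, chr4:173168561-173168810, plus strand: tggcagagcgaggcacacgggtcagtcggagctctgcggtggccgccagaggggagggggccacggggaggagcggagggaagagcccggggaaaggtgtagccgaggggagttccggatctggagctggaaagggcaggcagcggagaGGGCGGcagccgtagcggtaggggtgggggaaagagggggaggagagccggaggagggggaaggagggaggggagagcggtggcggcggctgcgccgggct
GALNT12, chr9:98807420-98807669, plus strand: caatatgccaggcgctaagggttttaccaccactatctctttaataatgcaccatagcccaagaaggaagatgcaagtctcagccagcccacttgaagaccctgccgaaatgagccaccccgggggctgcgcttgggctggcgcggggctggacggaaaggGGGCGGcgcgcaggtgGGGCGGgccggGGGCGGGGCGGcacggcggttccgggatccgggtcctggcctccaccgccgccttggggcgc
GALNT2, chr1:230066988-230067237, plus strand: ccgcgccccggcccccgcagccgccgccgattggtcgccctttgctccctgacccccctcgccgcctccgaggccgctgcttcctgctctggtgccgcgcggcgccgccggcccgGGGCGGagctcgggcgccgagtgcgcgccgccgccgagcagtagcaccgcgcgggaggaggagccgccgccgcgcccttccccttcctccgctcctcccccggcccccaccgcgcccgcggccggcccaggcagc
GGGCGG or its reverse complement was found at 4 positions for GALNT12, 2 of them overlapping, and at 1 position each for GALNT7 and GALNT2, and 42.6% of 35116 windows of the same length hold at least 1. CAGAC, a short box that SMAD proteins bind, searched on both strands with the same overlaps allowed, was found in none of the 3 windows and in 38.0% of all windows. TATAAA was in none of the 3 and in 10.7% of all. The windows held 20, 21 and 42 CpG dinucleotides for GALNT7, GALNT12 and GALNT2, where the median window held 11. Of the 10 genes 7 were in the promoter table. In the windows of GALNT3, GALNT10 and GALNT11, which are not shown, GGGCGG was found at 2, 4 and 0 positions. These windows held 26, 46 and 1 CpG dinucleotides. A link between the windows and the levels was not tested. These matches are descriptions of letters in a window and say nothing of binding.

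A ratio between 2 members within an array is not changed when all values of that array are shifted by 1 amount, although it can change with quantile normalization. Of the 36 pairs among the 9 genes, 4 (11.1%) had ratios that did not overlap between groups. For single levels the share was 15.8% of all probe sets, which is an unlike measure. Ratios between other probe sets were not examined, so the share for pairs has no background of its own kind. GALNT6 minus GALNT12 was -0.72, -0.64 and -0.64 on replicates 1, 2 and 3 with doxycycline and -1.03, -0.74 and -1.76 without. The mean shift was 0.51 and the closest arrays were 0.02 apart; the shift was 0.22 without replicate 3 and 0.73 without replicate 2 of the cells lacking doxycycline, and 0.44 after a second quantile normalization. GALNT11 minus GALNT12 was 0.55, 0.53 and 0.57 with doxycycline and 0.38, 0.40 and 0.21 without, so the arrays with doxycycline were higher by at least 0.13. Its shift was 0.22, or 0.16 without replicate 3, 0.25 without replicate 2 and 0.19 after a second quantile normalization. The other two were GALNT4 minus GALNT12, with a shift of 0.26, and GALNT4 minus GALNT6, with -0.25; these were 0.11 and -0.11 without replicate 3. No test was made on the ratios, because they were examined together and the pairs share genes.

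**Figure D3:**
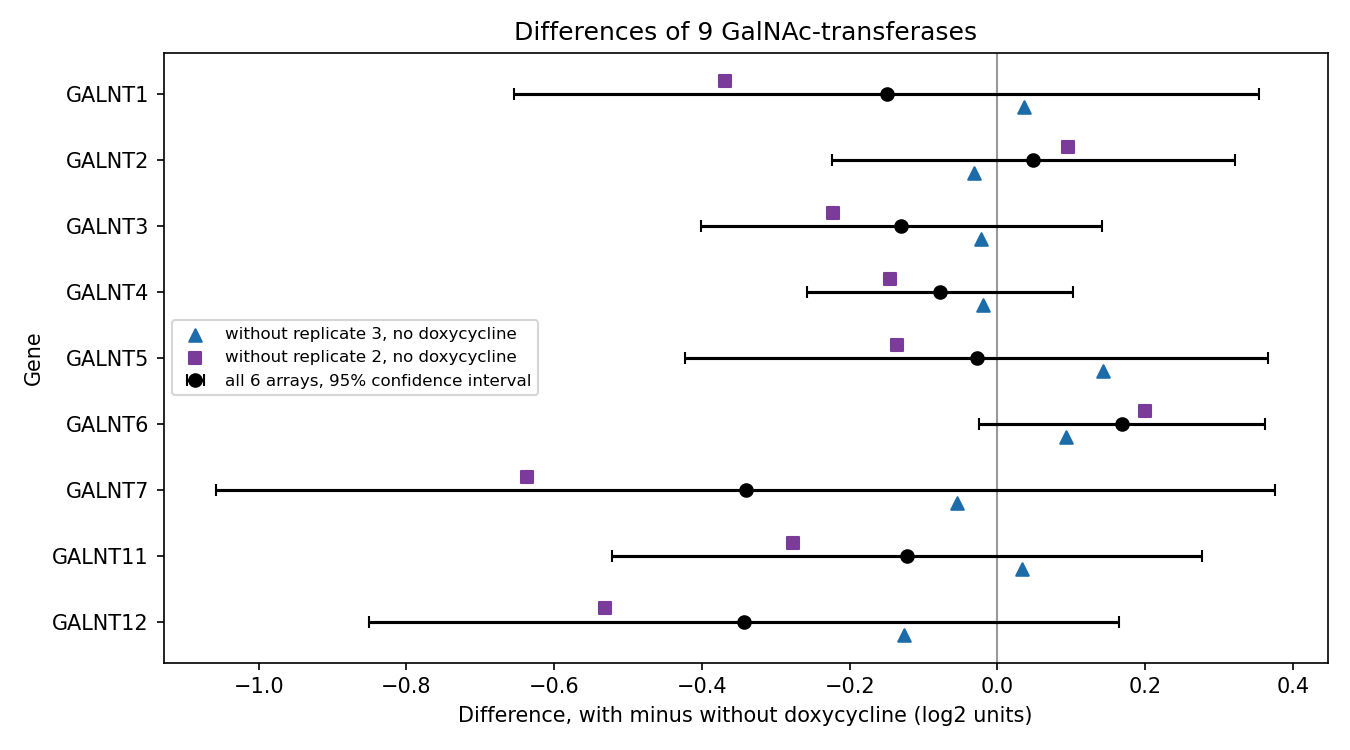
Differences in log2 units (horizontal axis), with minus without doxycycline, for the 9 genes: black points and bars are the limma estimates and 95% confidence intervals from all 6 arrays, triangles and squares the estimates without replicate 3 or without replicate 2 of the cells lacking doxycycline. All 9 intervals include 0, and the triangles for GALNT1, GALNT2, GALNT5 and GALNT11 lie on the other side of 0 from the black points.

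The intervals set what these arrays could show. For GALNT4 a difference beyond -0.26 or 0.10 lay outside the 95% confidence interval, whereas for GALNT7 the interval ran to -1.06, so a halving of signal remained inside it. The median interval reached 0.39 to either side for the 9 members and 0.15 for all probe sets. Replicate 2 without doxycycline was the lowest of its group in the 7 genes whose means were lower with doxycycline. In GALNT2 and GALNT6 it was above its group mean. Leaving it out therefore had to move all 9 differences away from 0, and no share over all probe sets was taken. Without it 8 of them were over 1.5 times as large, GALNT6 being the exception at 0.20. GALNT7 was then at -0.64, GALNT12 at -0.53, GALNT1 at -0.37, GALNT11 at -0.28, GALNT3 at -0.22, GALNT4 at -0.15, GALNT5 at -0.14 and GALNT2 at 0.10. In that setting 4 of the 9 had an unadjusted p under 0.05 (limma), all of them lower. Over all probe sets 258 of 1259 (20.5%) had such a p, 182 of them lower. Of the 9 members 0 passed (limma, smallest adjusted p = 0.147). That setting leaves only replicates 1 and 3 without doxycycline, and replicate 3 is the array that stood apart.

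The levels most like those of GALNT6 over the 6 arrays, among 918 named genes outside the members, were those of DDOST, a subunit of the oligosaccharyltransferase (Pearson r = 0.99), and B4GAT1, a glucuronyltransferase of dystroglycan (r = 0.98). Over the 5 arrays without replicate 3 of the cells lacking doxycycline these were 0.95 and 0.91. For GALNT12 they were SEPTIN2, a cytoskeletal septin, KITLG, the ligand of KIT, and IGF1R, the receptor of insulin-like growth factor 1, each with r between 0.99 and 1.00, and 0.99, 0.98 and 0.97 over those 5. With so few arrays, 82 genes exceeded an r of 0.95 with GALNT12 and 15 with GALNT6.

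Of the other GalNAc-transferases, 10 were listed and 9 measured, 3 higher and 6 lower with doxycycline and 0 past the threshold. With limma 2 of the 9 had an unadjusted p under 0.05, beside 98 of 1259 probe sets (7.78%). In the lists that follow, this count was 0 of 8 for UDP-GalNAc supply, 3 of 12 for core and capping enzymes and 2 of 17 for mucins. No list was tested as a set. The median of the other GalNAc-transferases was -0.02, beside -0.0081 over all probe sets, and it turned to 0.0018 when the arrays were quantile normalized again. GALNT13, a relative of GALNT1 known from neurons, read 6.73, 6.82 and 6.76 with doxycycline and 6.88, 6.96 and 6.90 without, so the groups did not overlap, and all of these values lay near the lower array quartile. Its difference of -0.14 (limma, SE 0.04, adjusted p = 0.477) was -0.15 without replicate 3 of the cells lacking doxycycline. GALNT18 read 9.02, 9.04 and 9.13 with doxycycline and 9.40, 9.12 and 9.52 without, and replicate 2 without doxycycline fell below the highest with it. It differed by -0.28 (limma, SE 0.11, adjusted p = 0.592), by -0.20 without replicate 3 and by -0.40 without replicate 2 of the cells lacking doxycycline. GALNT8 was at -0.05 (limma, adjusted p = 0.715).

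The donor sugar of all these enzymes is UDP-GalNAc, made in the cytosol and carried into the Golgi. Of 8 genes of its supply described here 6 were higher and 2 lower with doxycycline, 0 past the threshold, and their median was 0.07, which was 0.02 without replicate 3 of the cells lacking doxycycline and -0.0053 with array weights. SLC35D1, a transporter of UDP-GalNAc and UDP-glucuronic acid, read 7.29, 7.24 and 7.26 with doxycycline and 7.24, 7.18 and 7.08 without. Its groups did not overlap, by a margin of 0.00046 log2 units, and it differed by 0.10 (limma, SE 0.05, adjusted p = 0.692), or 0.05 without that array. SLC35D2, a related transporter, was at 0.18, and at 0.01 without it; GFPT2, an enzyme at the start of UDP-GlcNAc synthesis, was at -0.13, and at -0.01 without it.

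Enzymes that act next on the GalNAc extend it to cores or cap it with sialic acid. Of 12 measured, 7 were higher and 5 lower with doxycycline, 0 past the threshold, and their median was 0.02, which turned to -0.0088 with array weights. C1GALT1C1, the chaperone Cosmc without which core 1 is not made, read 7.80, 7.79 and 7.80 with doxycycline and 7.59, 7.65 and 7.39 without (limma, adjusted p = 0.477). ST6GALNAC2, which caps with sialic acid, read 9.30, 9.23 and 9.32 with doxycycline and 9.17, 8.98 and 8.86 without (limma, adjusted p = 0.478). ST3GAL1, which caps core 1, was lower on every array with doxycycline, at 8.04, 8.13 and 8.11 against 8.24, 8.21 and 8.39 (limma, adjusted p = 0.482). None of these 3 passed, and their differences of 0.25, 0.28 and -0.19 were 0.17, 0.20 and -0.13 without replicate 3 of the cells lacking doxycycline.

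Mucins and mucin-like proteins are the acceptors of these sugars. Of 17 measured genes, 5 were higher and 12 lower with doxycycline, 0 past the threshold, and their median was -0.02. OVGP1, an oviduct mucin, read 7.56, 7.63 and 7.60 with doxycycline and 7.85, 7.78 and 8.13 without (limma, adjusted p = 0.477). EMCN, a mucin-like protein of endothelium, read 7.98, 8.07 and 8.06 with doxycycline and 7.92, 7.80 and 7.56 without (limma, adjusted p = 0.562). PODXL, a sialomucin of the cell surface, had overlapping groups and was at -0.43 (limma, adjusted p = 0.669), or -0.26 without replicate 3 of the cells lacking doxycycline.

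**Figure D4:**
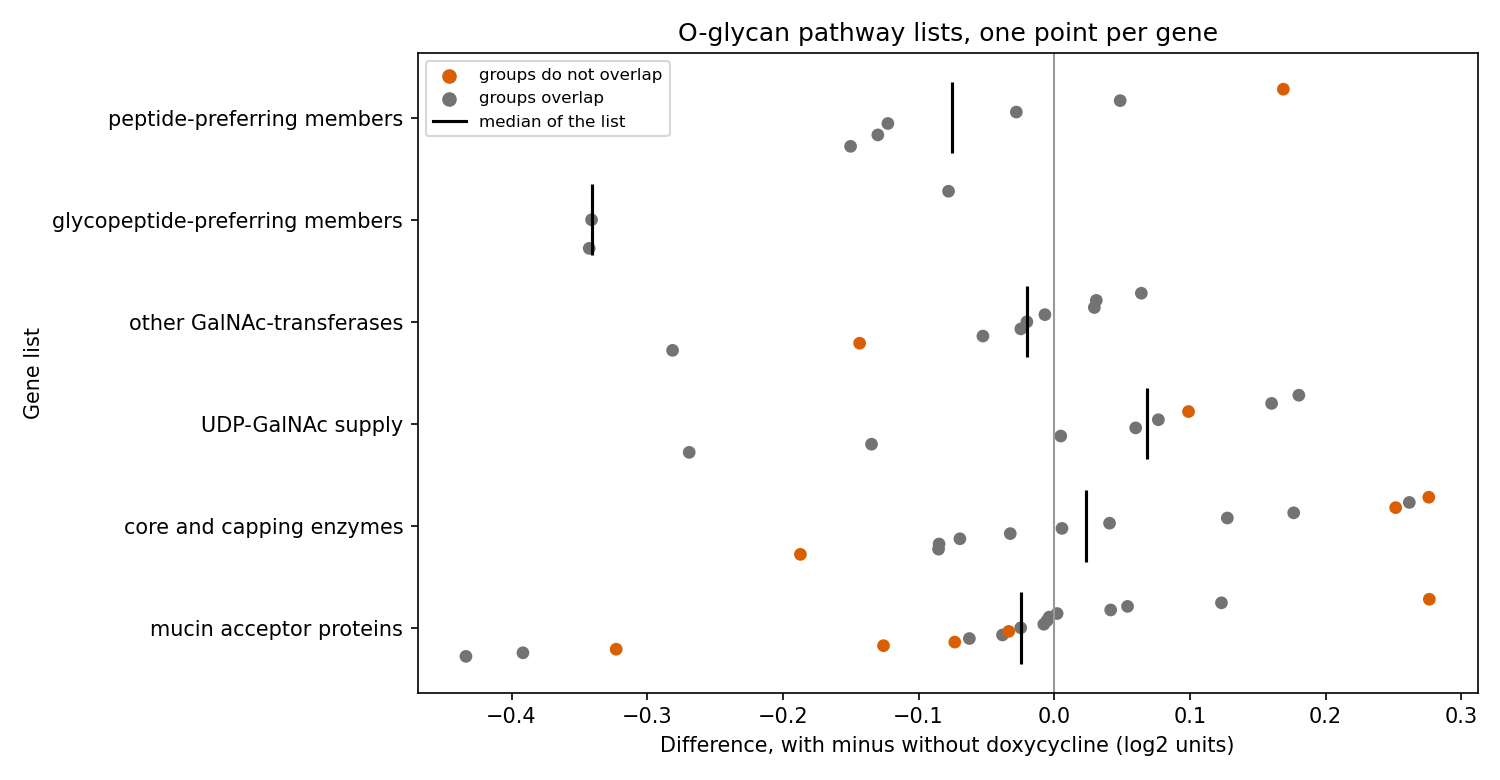
Differences in log2 units (horizontal axis), with minus without doxycycline, for each measured gene of 6 lists of the O-glycan pathway; orange points are genes whose groups do not overlap and vertical lines are list medians. The medians run from -0.34 for the members that prefer glycosylated peptide to 0.07 for UDP-GalNAc supply, and 0 genes of any list passed the threshold.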

How the data were processed

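The deposited log2 values cover 1259 probe sets on 6 single-colour arrays, 3 with and 3 without doxycycline. The authors obtained them by RMA (background correction, quantile normalization and probe summary), as the submitters' processing notes name it without a version, from Trizol-extracted RNA and Affymetrix-type biotin labelling, per the labels' protocols. Scanner files were left aside. Names were given through RefSeq accessions without versions, using a GRCh38.p14 gene table; 1043 (82.8%) had 1 symbol, 190 carried no such accession and 26 one outside the table.

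The whole table was fitted in R 4.3.3 by limma 3.58.1 (two-sided moderated test from lmFit and eBayes), and p-values were adjusted by Benjamini-Hochberg over 1259 probe sets at 0.05. Exact permutation tests of 3 against 3 arrays cannot go below p = 0.1. Precision is limited by the number of arrays. The fit was tested on simulated data. Where a gene had several probe sets, the brightest on average stood for it. Named were every member, ACVR2A, up to 3 genes per list with the smallest unadjusted p, and the 3 genes most like each of the 2 members with the smallest p; A further gene that the lists and rule take is not reported here. The members and lists were chosen with earlier results of these data known. Replicate numbers were not used as pairs: deviations of same-numbered arrays correlated at -0.15, -0.04 and -0.16. Alternatives were median centring, a second quantile normalization, leaving out dim probe sets, array weights, the replicate block, a trended robust variance and leaving out each array.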

Additional observations from a re-analysis of the deposited data

How the results depend on the processing

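Over 12 other settings 0 GalNAc-transferases passed, and 5 of the 9 (GALNT3, GALNT4, GALNT6, GALNT7 and GALNT12) kept the direction of their difference in each setting that tested them; GALNT3 was left out with the dim probe sets. With array weights, whose estimation stopped before it converged, 1 of 1259 probe sets passed, GALNT2 was at -0.017 and GALNT5 at 0.036. When each array was left out in turn, the differences ran from -0.37 to 0.036 for GALNT1, -0.041 to 0.12 for GALNT2, -0.14 to 0.14 for GALNT5 and -0.28 to 0.034 for GALNT11. The median of the other GalNAc-transferases was -0.00023 with each array centred on its median, 0.0018 after a second quantile normalization, 0.0045 with array weights and between -0.020 and 0.0055 without 1 array. The median of core and capping enzymes was -0.0088 with array weights, 0.043 after centring, 0.041 after quantile normalization and also without dim probe sets, and between 0.013 and 0.053 without 1 array. The mucin median was -0.0048 after centring and -0.0034 after quantile normalization. With the replicate block 0 members passed and differences were the same by construction; GALNT12 had an adjusted p of 0.742 and GALNT6 of 0.746 (limma), and 81 probe sets in place of 98 had an unadjusted p under 0.05. The median of UDP-GalNAc supply was -0.0053 with array weights and between 0.015 and 0.11 without 1 array. Signal over background is unknown, which limits GALNT3 most.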
